A study of Mus musculus with 12 samples.

Results

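The 6 genes described here encode receptors for the constant (Fc) part of IgG, the chain through which some of them signal, and the neonatal Fc receptor. They are *Fcgr1*, *Fcgr2b*, *Fcgr3*, *Fcgr4*, *Fcer1g*, and *Fcgrt*, chosen by name, and all 6 were found among the 31053 genes of the matrices. The study compared PyMT breast tumors of wild-type mice with those of PAR2 G37I mice, whose receptor PAR2 resists signaling by coagulation factor Xa. PyMT mice develop breast tumors spontaneously because the MMTV promoter, active in mammary epithelium, drives polyomavirus middle T antigen. All samples carry this transgene, and no further treatment was given. CD11c-selected cells came from late-stage tumors and CD4/CD8-selected cells from mid-size tumors, with 3 wild-type and 3 G37I samples of each. The cells were frozen, thawed, and sequenced on the 10x Genomics platform.

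IgG bound to its target engages Fc gamma receptors on myeloid cells. *Fcgr1* (FcγRI, CD64), *Fcgr3* (FcγRIII, CD16), and *Fcgr4* (FcγRIV) are activating receptors, which in the mouse signal through the ITAM of the common γ chain encoded by *Fcer1g*, whereas *Fcgr2b* (FcγRIIb) carries its own inhibitory ITIM. *Fcgrt* encodes the heavy chain of FcRn, which pairs with β2-microglobulin and rescues endocytosed IgG and albumin from degradation. In tumors, Fc gamma receptors on macrophages mediate the uptake of antibody-coated cells.

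Of the 6 genes, 4 lie on chromosome 1 within 275749 bases (GRCm38, GENCODE M21). *Fcgr2b* is on the minus strand at chr1:170958617-170976547, *Fcgr4* on the plus strand at chr1:171018920-171029761, *Fcgr3* on the minus strand at chr1:171051174-171064935, and *Fcer1g* on the minus strand at chr1:171229572-171234365. *Fcgr1* is on the minus strand at chr3:96282909-96293969 and *Fcgrt* on the minus strand at chr7:45092990-45103851. *Fcgr2b* and *Fcgr3* shared stretches of 50 bases, 4.48% of those in the transcripts of *Fcgr2b* and 10.2% of those of *Fcgr3*, and how reads from them were counted is not given in the sources used here, so the counts of these 2 genes are less certain. The other 4 genes shared no such stretch with another gene. An antisense gene overlaps *Fcgr2b* and another overlaps *Fcgrt*.

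The 250 bases before the transcription start are shown for *Fcgr1* and *Fcgr4*, activating receptors that were low in every gate of dendritic cells, and for *Fcgrt*, whose level differed least between dendritic cells and macrophages. They are the RefSeq promoters of GRCm38.p6, at chr3:96293970-96294219 (minus strand), chr1:171018676-171018925 (plus strand), and chr7:45103823-45104072 (minus strand). Capitals mark GAGGAA, a core bound by PU.1 and other ETS factors, and TTCNNNGAA, a core bound by STAT factors, each sought on both strands, so that GAGGAA may read TTCCTC.
Fcgr1: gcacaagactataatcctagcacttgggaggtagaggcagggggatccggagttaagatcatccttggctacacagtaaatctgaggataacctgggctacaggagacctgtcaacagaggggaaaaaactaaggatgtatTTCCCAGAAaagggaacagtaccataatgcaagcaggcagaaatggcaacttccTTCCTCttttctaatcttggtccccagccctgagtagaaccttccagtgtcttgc
Fcgr4: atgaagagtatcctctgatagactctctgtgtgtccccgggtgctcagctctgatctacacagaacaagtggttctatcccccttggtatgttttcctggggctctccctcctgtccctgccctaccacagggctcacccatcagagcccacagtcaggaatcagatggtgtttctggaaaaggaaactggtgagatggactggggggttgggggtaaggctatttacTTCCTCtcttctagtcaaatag
Fcgrt: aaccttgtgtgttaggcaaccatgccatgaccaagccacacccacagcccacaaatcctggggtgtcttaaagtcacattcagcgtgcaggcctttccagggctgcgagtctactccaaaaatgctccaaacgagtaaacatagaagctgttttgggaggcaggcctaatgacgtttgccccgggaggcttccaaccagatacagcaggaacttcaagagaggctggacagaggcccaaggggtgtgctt
*Fcgr1* held 1 match to GAGGAA and 1 to TTCNNNGAA, *Fcgr4* 1 match to GAGGAA, and *Fcgrt* none of either. The 2 RefSeq windows of *Fcgr3* each held 1 match to GAGGAA and 1 to TGCTGA, a core bound by MAF factors that was also sought, and the windows of *Fcgr2b* and *Fcer1g* held no match to any of the 3 motifs. Among 32851 promoters of the same length, 23.3% held GAGGAA, 7.02% TTCNNNGAA, and 16.1% TGCTGA. A match describes these letters and shows no binding.

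The CD11c-selected matrix held 11639 cells with at least 200 detected genes, with a median of 7943 unique molecular identifiers (UMIs) per cell. The CD4/CD8-selected matrix held 22806 such cells with a median of 4361. Barcodes carry no sample name, so each matrix is 1 pooled sample, genotypes were not compared, and no test was possible. In each matrix the barcodes run through the alphabet 6 times. These barcode runs, with 13314063 to 30168668 UMIs each, were not linked to samples, and the range of a value over them is given as a description. A level is the UMIs of a gene per 1000000 UMIs summed over the cells of a gate (CPM), and the 95% confidence intervals (CI, exact) cover counting error only. Barcodes that occurred more than once numbered 76 and 51 in the 2 matrices, and 92 occurred in both.

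Cells were assigned to 16 gates of CD11c-selected cells by raw UMIs of marker genes, none of which is an Fc receptor gene. Marker lists that no gate used were highest in the gate of the same name for macrophages, monocytes, cDC1, migratory DC, neutrophils, and T cells. The cDC2 list was not: it was higher in neutrophils (2617 CPM, from 2 of its 5 genes) and in T cells (967 CPM, from all 5) than in the cDC2 gate (778 CPM). The cells gated on *Ace* and *Treml4*, genes of patrolling monocytes, carried endothelial markers at 1045 CPM, the highest of any gate, and are called the Ace/Treml4 gate. A list of basophil and mast cell markers, which include the α and β chains that pair with *Fcer1g* in the IgE receptor, was at most 2.17 CPM (T cells). All 4 of its markers were at 0 in neutrophils, cDC1, cDC2, Ly6c2 monocytes, and Fn1/Ccr2 myeloid cells. Fn1/Ccr2 myeloid cells were gated with no limit on C1q. Epithelial cells and fibroblasts served as background for the genes other than *Fcgrt*.

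*Fcgr1*, the high-affinity IgG receptor, was highest in Ly6c2 monocytes at 302 CPM (CI 262 to 346, 81 cells, runs 189 to 421). Il10 macrophages followed at 235 CPM, Lyve1/Cd209f macrophages at 204 CPM, and Thbs1 macrophages at 200.4 CPM. The monocytes were thus above the macrophage gates by counting error, but the ranges over runs overlapped. The other macrophage gates lay close together, with other C1q macrophages at 179 CPM, Tmem119/Zmynd15 macrophages at 176 CPM, and Gpnmb/Trem2 macrophages at 165 CPM, and their intervals overlapped. Below a gap stood Fn1/Ccr2 myeloid cells at 52.9 CPM (CI 49.6 to 56.4, runs 37.2 to 71.0) and the Ace/Treml4 gate at 43.5 CPM. Among dendritic cells *Fcgr1* was at 22.1 CPM in cDC2 (CI 17.1 to 28.2), 4.86 CPM in migratory DC, and 2.63 CPM in cDC1. The last 2 overlapped the background of 5.25 CPM in epithelial cells, as did neutrophils (8.48 CPM from 3 UMIs) and T cells (6.52 CPM from 3 UMIs). Fibroblasts had 1 UMI.

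*Fcgr3*, a receptor of low affinity and the form of CD16 on mouse NK cells and myeloid cells, was spread more evenly. Lyve1/Cd209f macrophages were highest at 646 CPM (CI 610 to 683, runs 447 to 836). They were followed by Gpnmb/Trem2 macrophages at 527 CPM (runs 353 to 838) and neutrophils at 461 CPM (CI 393 to 537). The next 4 gates ran from 416 CPM in Il10 macrophages through 398 CPM in Fn1/Ccr2 myeloid cells and 393 CPM in Tmem119/Zmynd15 macrophages to 385 CPM in Thbs1 macrophages, each overlapping its neighbor. Other C1q macrophages were at 355 CPM, Ly6c2 monocytes at 243 CPM, and the Ace/Treml4 gate at 161 CPM. In contrast to *Fcgr1*, the Fn1/Ccr2 cells and the neutrophils were thus within the range of the macrophages. The level in cDC2 was 84.0 CPM (runs 44.3 to 182), whereas cDC1 (4.02 CPM) and migratory DC (2.70 CPM) were below the 8.97 CPM of epithelial cells and T cells (6.52 CPM) overlapped them. In fibroblasts *Fcgr3* was not detected, where 3 UMIs would be 4.05 CPM.

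*Fcgr4*, which binds IgG2a and IgG2b, was highest in Il10 macrophages at 195 CPM (CI 182 to 209.9, runs 163 to 209). Other C1q macrophages (153 CPM) and Thbs1 macrophages (149.9 CPM) came next, followed by Tmem119/Zmynd15 macrophages at 128 CPM and Lyve1/Cd209f macrophages at 119.6 CPM. Gpnmb/Trem2 macrophages, at 59.9 CPM (CI 50.9 to 70.0, runs 22.0 to 76.3), were the lowest macrophage gate. Ly6c2 monocytes were at 99.6 CPM and the Ace/Treml4 gate at 91.1 CPM, with intervals that overlapped. Neutrophils at 53.7 CPM and Fn1/Ccr2 myeloid cells at 40.4 CPM also overlapped each other. The 9.18 CPM of cDC2 were from 27 UMIs, and migratory DC (3.78 CPM), T cells (4.34 CPM), and cDC1 (1.39 CPM) overlapped the 3.39 CPM of epithelial cells. Fibroblasts had 0 UMIs, with the same limit of 4.05 CPM.

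*Fcgr2b*, the inhibitory receptor, was highest in Lyve1/Cd209f macrophages at 1139 CPM (CI 1091 to 1189, runs 934 to 1373). Il10 macrophages (731 CPM), Thbs1 macrophages (546 CPM), and Fn1/Ccr2 myeloid cells (482 CPM) followed, none overlapping the next. Gpnmb/Trem2 macrophages at 421 CPM, other C1q macrophages at 417 CPM, and Ly6c2 monocytes at 389.7 CPM overlapped. Tmem119/Zmynd15 macrophages, the lowest macrophage gate at 253 CPM (CI 247 to 260, runs 203 to 329), overlapped cDC2 at 261 CPM (CI 243 to 280.3, runs 198 to 439). Every run of the Lyve1/Cd209f macrophages was above every run of the Tmem119/Zmynd15 macrophages. The Ace/Treml4 gate was at 250.4 CPM and cDC1 at 83.2 CPM (CI 76.3 to 90.6), both above epithelial cells at 22.4 CPM (runs 2.71 to 48.3). However, the 2 runs of the Ace/Treml4 gate with at least 10 cells were at 39.8 and 144 CPM. Neutrophils (31.1 CPM), T cells (28.2 CPM), and fibroblasts (47.2 CPM) were low, and migratory DC were the lowest at 12.4 CPM (CI 7.88 to 18.6).

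*Fcer1g*, the common γ chain, was high in every gate of phagocytes. Gpnmb/Trem2 macrophages were at 2742 CPM (CI 2679 to 2806, runs 2075 to 3086), Tmem119/Zmynd15 macrophages at 2651 CPM, Ly6c2 monocytes at 2568 CPM, and neutrophils at 2540.3 CPM, of which the last 3 overlapped in order. Thbs1 (2253 CPM), other C1q (2246 CPM), Il10 (2200.2 CPM), and Lyve1/Cd209f macrophages (2045 CPM) followed. The runs of all 6 macrophage gates overlapped. Fn1/Ccr2 myeloid cells were at 1675 CPM, the Ace/Treml4 gate at 1488 CPM, and cDC2 at 1429.6 CPM (runs 1289 to 1594). Then came T cells at 817 CPM, migratory DC at 315 CPM, cDC1 at 203 CPM (runs 166 to 276), epithelial cells at 143 CPM (runs 47.1 to 419), and fibroblasts at 10.8 CPM. The run range of epithelial cells held the whole run range of cDC1.

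*Fcgrt*, the heavy chain of FcRn, had the widest spread among macrophages. It was at 1088 CPM in Lyve1/Cd209f macrophages (CI 1041 to 1136, runs 977 to 1159) and at 388 CPM in Il10 macrophages (runs 325 to 455). The lowest macrophage gates were Tmem119/Zmynd15 at 53.8 CPM (runs 40.7 to 92.2) and Gpnmb/Trem2 at 32.4 CPM (CI 25.9 to 40.1, runs 27.0 to 38.1). The runs of these 4 gates did not overlap. Between them, other C1q macrophages (163 CPM), cDC2 (142 CPM), fibroblasts (128 CPM), cDC1 (124 CPM), Thbs1 macrophages (112 CPM), Ly6c2 monocytes (93.8 CPM), the Ace/Treml4 gate (91.1 CPM), and Fn1/Ccr2 myeloid cells (88.7 CPM) each overlapped the next. Unlike the Fc gamma receptors, *Fcgrt* was therefore found in fibroblasts and cDC1 at the level of Thbs1 macrophages. Migratory DC (20.5 CPM) and T cells (17.4 CPM) overlapped epithelial cells at 25.4 CPM, and neutrophils had 2 UMIs (5.65 CPM). *B2m*, the light chain of FcRn, was at 3970 CPM in Lyve1/Cd209f and 4685 CPM in Gpnmb/Trem2 macrophages, so the macrophages highest in *Fcgrt* were not those highest in *B2m*.

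**Figure D1:**
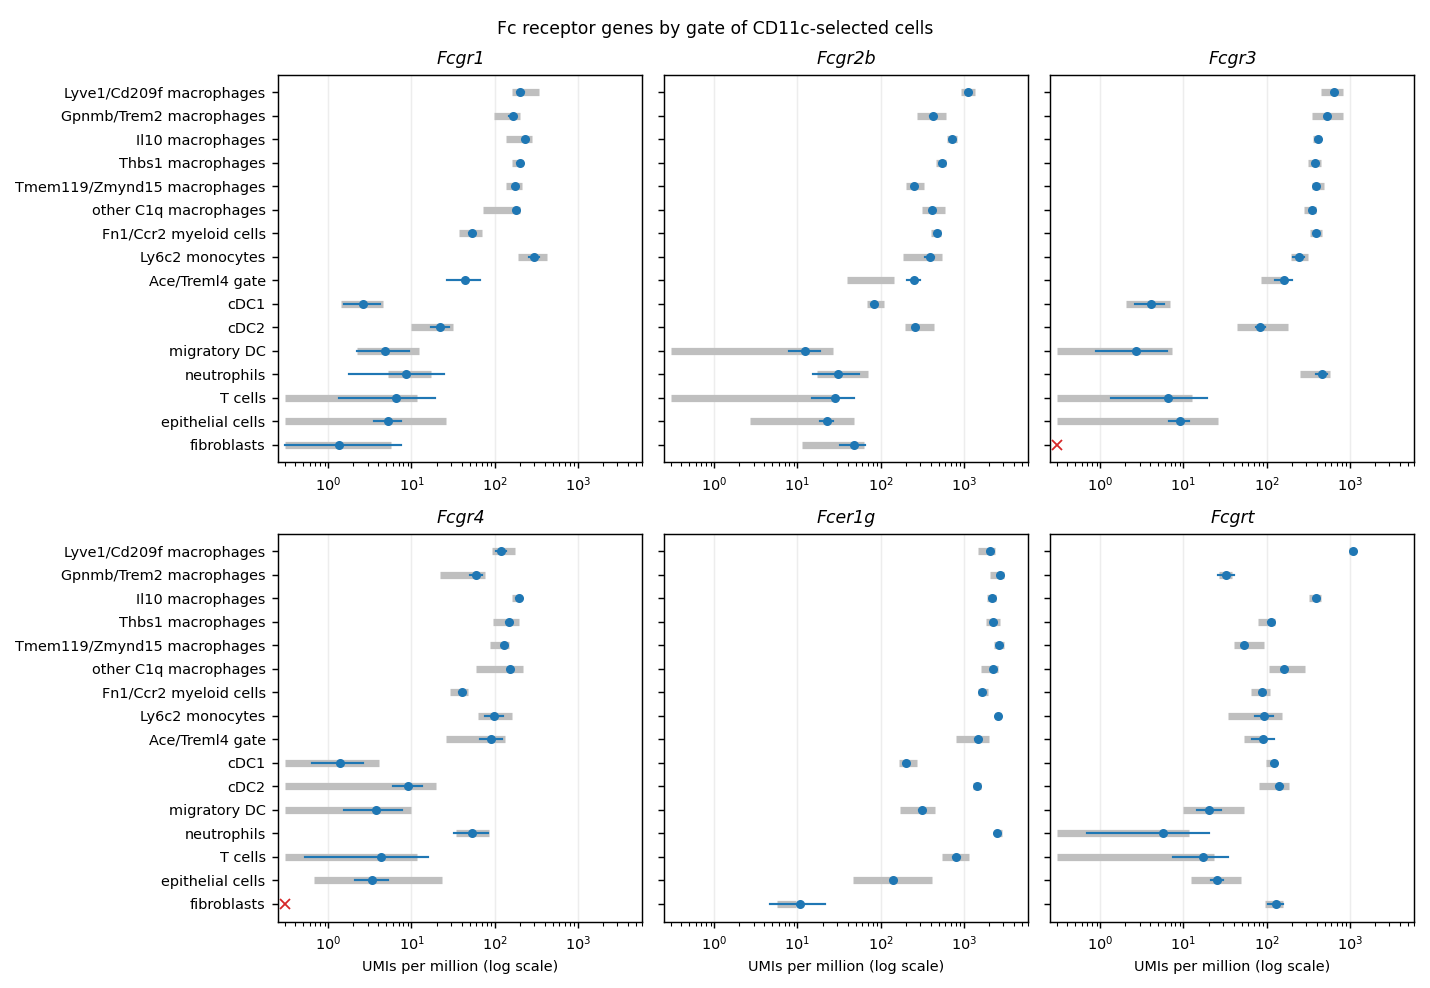
Level of each gene (CPM, log axis) in the 16 gates of CD11c-selected cells, with the point the pooled value, the thin line its exact 95% Poisson interval, the gray bar the range over barcode runs of at least 10 cells (a run at 0 is drawn at the left edge), and a cross a gate with 0 UMIs. *Fcgr1*, *Fcgr3*, and *Fcgr4* drop from macrophages to cDC1 and migratory DC, while *Fcgrt* spans from 1088 CPM in Lyve1/Cd209f to 32.4 CPM in Gpnmb/Trem2 macrophages.

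Pooled macrophages (6459 cells) were compared with pooled dendritic cells (773 cells, cDC1, cDC2, and migratory DC). All 6 genes passed the filter on low counts, and 5 of 6 were at least 2-fold higher in macrophages, against 18.3% of 11487 genes (8.73% were at least 2-fold lower). *Fcgr4* was 34.6-fold higher (CI 25.6 to 47.8, runs 22.3 to 65.1), with 132 CPM in macrophages and 3.82 CPM in dendritic cells. *Fcgr1* was 23.4-fold higher (CI 19.0 to 29.1, runs 14.8 to 39.5), with 189 against 8.08 CPM. The intervals of *Fcgr4* and *Fcgr1* in dendritic cells overlapped those of epithelial cells (3.39 and 5.25 CPM), so these 2 folds have a divisor near background. *Fcgr3* was 17.4-fold higher (CI 15.5 to 19.7, runs 7.26 to 35.6), with 431 against 24.7 CPM, and doubling every gate minimum gave 27.1-fold. The fold was smaller for *Fcer1g*, at 4.65 (CI 4.53 to 4.77), and for *Fcgr2b*, at 3.73 (CI 3.53 to 3.94). These 2 folds depend on the mix of dendritic cells, as do those of *Fcgr3* and *Fcgr1*. In cDC2, *Fcgr3* and *Fcgr1* were at 84.0 and 22.1 CPM, but in cDC1 at 4.02 and 2.63 CPM. Pooled macrophages were at 2516 CPM of *Fcer1g* and 440 CPM of *Fcgr2b*. The levels were 203 and 83.2 CPM in cDC1, but 1430 and 261 CPM in cDC2, less than 2-fold below the macrophages. For *Fcgrt* it was 1.57 (CI 1.48 to 1.67), and the runs spanned 0.903 to 3.72, so the direction was not the same in every run. In these pools the 3 activating receptors thus differed most, the inhibitory receptor and the γ chain less, and FcRn least. The size of the *Fcgr1* and *Fcgr4* folds depends on that background.

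The signaling genes downstream were less uneven than the 6 members. Of 23 genes of ITAM and ITIM signaling, 7 were at least 2-fold higher in macrophages and 1 was lower, against 18.3% and 8.73% of all genes tested. Their median fold was 1.29, against 1.08 over all genes tested. The same shares stand beside the counts of the lists below. Among the higher ones were *Dok3* (15.9-fold), *Blnk* (6.81-fold), *Inppl1* (2.94-fold), *Lat2* (2.72-fold), *Tyrobp* (2.35-fold), and *Dok2* (2.35-fold). *Tyrobp* encodes an ITAM adaptor related to the γ chain, *Blnk* and *Lat2* adaptors, and *Dok2*, *Dok3*, and *Inppl1*, the phosphatase SHIP2, negative regulators. The kinase *Syk*, which binds the phosphorylated ITAM, was 1.45-fold higher and *Inpp5d*, the phosphatase SHIP1 recruited by FcγRIIb, was at 0.862 of its level in dendritic cells. *Vav3*, a guanine nucleotide exchange factor, was at 0.394. Among receptors that pair with the γ chain, 4 of 8 passed the filter and 3 were higher: the lectins *Clec4d* (42.6-fold), *Clec4e* (9.58-fold), and *Clec4n* (4.44-fold). Among those that pair with *Tyrobp*, 4 of 6 were higher, led by *Trem2* (120-fold), which also served to gate 1 macrophage state. Of 12 other Fc receptor genes, 4 passed. *Fcrls*, an Fc receptor-like gene of macrophages and microglia, was 21.4-fold higher (367 against 17.1 CPM), *Fcrl1* was 2.38-fold higher, *Trim21*, the cytosolic IgG receptor, was at 3.98 against 2.13 CPM, and *Fcrla* was higher in dendritic cells (25.8 against 1.89 CPM).

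In Lyve1/Cd209f macrophages against all other macrophages, 2 of the 6 genes were at least 2-fold higher, against 7.08% of 8619 genes (9.76% were lower). The other macrophages included the 1133 cells of several states, which can also meet the Lyve1/Cd209f minimum. *Fcgrt* was 7.26-fold higher (CI 6.92 to 7.62, runs 3.65 to 13.2) and *Fcgr2b* 2.71-fold (CI 2.59 to 2.83, runs 1.75 to 3.04). *Fcgr3* was 1.52-fold higher and *Fcer1g* was at 0.809 of the other macrophages (runs 0.696 to 1.03). For *Fcgr1* (1.08-fold) and *Fcgr4* (0.903, CI 0.787 to 1.03) the intervals included 1. The ITAM and ITIM genes had 5 of 23 past 2-fold, among them *Dok2*, which was higher (3.47-fold), and *Fgr*, *Plcg2*, and *Lat2*, which were lower, the last by 4.02-fold. *Fgr* is a Src family kinase and *Plcg2* the phospholipase that ITAMs activate. *Fcrls* was 2.05-fold higher and *Mrc1*, the mannose receptor CD206, 5.77-fold.

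Gpnmb/Trem2 macrophages had low *Fcgrt*. Against all other macrophages they had 2 of 6 genes at least 2-fold lower, against 7.54% of 9267 genes (3.19% were higher). The other macrophages again included the cells of several states, which can also meet the Gpnmb/Trem2 minimum. *Fcgrt* was 5.59-fold lower (ratio 0.179, CI 0.143 to 0.221) and *Fcgr4* 2.25-fold lower (CI 1.92 to 2.66). *Fcgr3* (1.23-fold, runs 0.949 to 1.82), *Fcer1g* (1.09-fold, runs 0.903 to 1.10), and *Fcgr2b* (0.955, CI 0.899 to 1.01, runs from 0.848 to above 1) did not go the same way in every run. Of the signaling genes, *Lyn*, a Src family kinase that phosphorylates both ITAM and ITIM, was 2.28-fold lower, the only 1 of 23 past 2-fold. The γ chain partner *Clec4d* was 3.49-fold higher.

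Ly6c2 monocytes differed from pooled macrophages by less than 2-fold in all 6 genes (2.88% of 6251 genes were at least 2-fold higher and 7.74% lower). *Fcgr1* was 1.60-fold higher (CI 1.38 to 1.83, runs 0.885 to 2.01) and *Fcer1g* at 1.02 (runs 0.838 to 1.24). *Fcgr3* was 1.77-fold lower (CI 1.52 to 2.08, lower in every run) and *Fcgrt* was at 0.534 (runs 0.198 to 1.05). Thus high-affinity *Fcgr1* was not low in these monocytes, whereas *Fcrls*, at 10.3 against 367 CPM, was.

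Fn1/Ccr2 myeloid cells had 2 of 6 genes at least 2-fold lower than pooled macrophages, against 11.7% of 12077 genes (5.29% were higher). *Fcgr1* was 3.57-fold lower (CI 3.34 to 3.82) and *Fcgr4* 3.26-fold lower (CI 3.03 to 3.53), in both cases with all 6 runs in that direction. *Fcgr2b* (1.10-fold, runs 0.798 to 1.56) and *Fcgr3* (0.924, runs 0.841 to 1.01) stayed near the macrophages. *Fcer1g* was 1.50-fold lower and *Fcgrt* 1.98-fold lower. Among the signaling genes, *Dok2* (9.06-fold), *Fgr* (2.35-fold), and *Vav3* (2.05-fold) were higher, and *Dok3* (2.78-fold) was lower. Their macrophage markers summed to 4292 CPM, against 21523 CPM in pooled macrophages.

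Neutrophils, of which there were 118 with a median of 3019 UMIs, kept only some of the receptors. Of the 6 genes 4 were at least 2-fold lower than in macrophages, against 19.8% of 4402 genes (15.2% were higher). The filter on low counts pools the UMIs of both gates. *Fcgr1* and *Fcgrt*, with 3 and 2 UMIs in neutrophils, passed it only through the macrophages, so the count of 4 carries no weight alone. For *Fcer1g* the ratio to macrophages was 1.01 (CI 0.944 to 1.08, runs 0.963 to 1.08). For *Fcgr3* it was 1.07 pooled (CI 0.911 to 1.25), but the runs spanned 0.575 to 1.55. *Fcgr4* was 2.46-fold lower (CI 1.57 to 4.09) from 19 UMIs. *Fcgr2b* was 14.2-fold lower (CI 7.91 to 28.4) from 11 UMIs. The ratios for *Fcgr1*, 0.0448 (CI 0.00925 to 0.131), and for *Fcgrt*, 0.0322 (CI 0.0039 to 0.116), came from 3 and 2 UMIs. At 2000 UMIs per cell, *Fcgr3* was detected in 53.6% of 97 neutrophils and *Fcer1g* in 96.9%, against 1.19% and 19.4% of epithelial cells. The γ chain partners *Clec4e* (17.7-fold), *Clec4d* (6.79-fold), and *Clec4n* (4.42-fold) were all higher, as were *Syk* (3.25-fold), *Fgr* (6.49-fold), and *Inpp5d* (2.67-fold), while *Blnk* and *Lat2* were at 2.83 CPM, 1 UMI each. *Clec4d* is also on the list of neutrophil markers used as a check.

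Within dendritic cells, cDC2 had 5 of 6 genes at least 2-fold above cDC1, against 9.81% of 8985 genes (11.8% were lower). *Fcgr1* and *Fcgr4*, with 17 and 9 UMIs in cDC1, passed the pooled filter only through cDC2. The count of 5 thus carries no weight alone. *Fcgr3* was 20.9-fold higher (CI 13.9 to 32.6, runs 7.49 to 53.2), *Fcgr1* 8.41-fold (CI 4.87 to 15.3), *Fcer1g* 7.05-fold (CI 6.63 to 7.51), and *Fcgr2b* 3.14-fold (CI 2.81 to 3.51). In cDC1, *Fcgr3* (4.02 CPM) was below epithelial cells (8.97 CPM) and *Fcgr1* (2.63 CPM) overlapped them (5.25 CPM). The folds of these 2 genes thus have a divisor at background. For *Fcer1g*, cDC1 were above epithelial cells pooled (203 against 143 CPM), but their run range lay within that of epithelial cells. *Fcgr4*, the other of the 5, was 6.60-fold higher pooled (CI 3.01 to 15.9, from 27 and 9 UMIs), but its direction was not the same in every run, and the run folds began at 0. *Fcgrt* differed little (1.15-fold, CI 1.02 to 1.29, runs 0.655 to 1.46). The γ chain partners *Clec4n* (75.6-fold), *Clec4e* (15.6-fold), and *Pira2* (3.97-fold) were higher in cDC2 as well, as were *Syk* (4.29-fold) and *Fgr* (15.0-fold). *Inpp5d*, by contrast, was 2.35-fold lower, and *Fcrla* was 18.3-fold lower. Markers of other cells with Fc receptors were also higher in cDC2 than in cDC1. The neutrophil list summed to 848 against 73.3 CPM (3 of 5 genes above 0 in both), the monocyte list to 544 against 306 CPM (3 of 4), and the macrophage list to 348 against 168 CPM (5 of 5). The part of these markers in the folds was not tested.

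Since cells differ in depth, each was also thinned at random to 5000 UMIs. Of 4379 pooled macrophages, 99.5% then had a UMI of *Fcer1g*, 77.1% of *Fcgr3*, 75.5% of *Fcgr2b*, 53.3% of *Fcgr1*, 42.5% of *Fcgr4*, and 37.5% of *Fcgrt*. In 222 epithelial cells, which should lack the Fc gamma receptors, the shares were 25.7% for *Fcer1g*, 9.01% for *Fcgr2b*, 4.05% for *Fcgr3*, 3.15% for *Fcgr1* and for *Fcgr4*, and 15.8% for *Fcgrt*. Their median depths before thinning were 8243 and 12099 UMIs. Without thinning, *Fcgr1* was found in 62.3% of macrophages and 5.61% of epithelial cells, and *Fcgrt* in 45.0% and 29.4%. In 374 cDC1 (median 15464 UMIs), *Fcgr1* (0.535%), *Fcgr3* (1.07%), and *Fcgr4* (0.535%) were not above the shares in epithelial cells, and the intervals overlapped. *Fcer1g* (54.0%) and *Fcgr2b* (29.1%) were above the epithelial shares. *Fcgrt* was found in 41.7% of cDC1, above epithelial cells but not above the 43 fibroblasts (44.2%), so no background is set for this gene. Detection of *Fcgrt* ranged from 98.5% of Lyve1/Cd209f macrophages (CI 94.7 to 99.8) to 14.5% of Gpnmb/Trem2 macrophages (CI 8.84 to 22.0), whose interval held the share in epithelial cells.

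The median cell of the Lyve1/Cd209f and Il10 gates had UMIs of 5 of the 6 genes, and all 6 were found in 20.3% and 20.9% of these cells. Tmem119/Zmynd15, Thbs1, and other C1q macrophages had a median of 4, and Gpnmb/Trem2 macrophages, Fn1/Ccr2 cells, and Ly6c2 monocytes a median of 3. The median was 2 in cDC2, 1 in cDC1 and migratory DC, and 0 in epithelial cells.

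**Figure D2:**
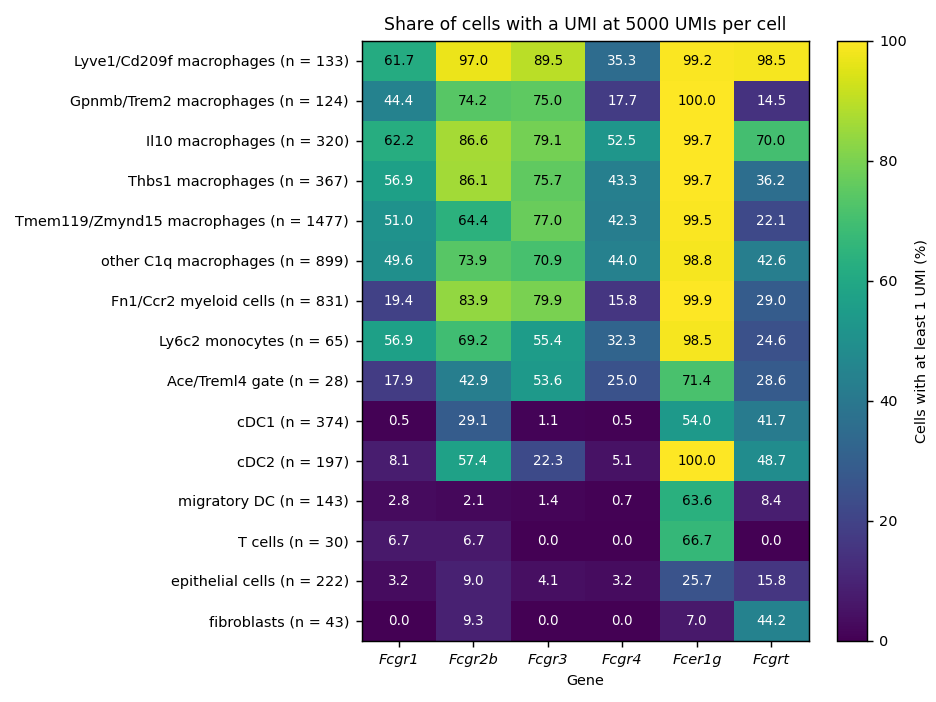
Percent of cells with at least 1 UMI of each gene (columns) after thinning to 5000 UMIs, by gate (rows, with the number of cells), where 1 color scale runs from 0 to 100%. *Fcer1g* is found in 98.8% or more of the cells of every macrophage gate, and *Fcgrt* in 98.5% of Lyve1/Cd209f but 14.5% of Gpnmb/Trem2 macrophages. Neutrophils are left out because only 5 had 5000 UMIs.

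Co-detection was read within pooled macrophages at 5000 UMIs. For every pair of the 6 genes, cells with a UMI of one gene more often had a UMI of the other, although the intervals overlapped for *Fcgrt* with *Fcer1g*, which nearly all cells had. *Fcgr2b* was found in 84.8% of macrophages with *Fcgrt* (CI 83.0 to 86.5) and in 69.8% without (CI 68.1 to 71.5). Leaving out the Lyve1/Cd209f gate gave 83.7% and 69.9%, and within Tmem119/Zmynd15 macrophages alone the shares were 68.1% and 63.3%. *Fcgr1* was found in 61.3% of macrophages with *Fcgr4* (CI 59.0 to 63.5) and in 47.5% without (CI 45.5 to 49.4), and in 58.1% and 45.8% within Tmem119/Zmynd15 macrophages. *Fcgr3* was found in 80.5% of macrophages with *Fcgr2b* and 66.6% without, so an activating receptor was more often found in cells that had the inhibitory one. Gates differ within the pool in these genes, and their part in the shares beyond the gates named was not tested.

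The study read co-expression of *Fcgr1*, *Mertk*, *Mrc1*, and *Procr* RNA in its CD11c-selected cells. In other mice it used the proteins CD64, MerTK, Mrc1, and EPCR in flow cytometry. Co-detection of the genes of this panel was therefore also read. The shares are of cells with RNA detected at 5000 UMIs and are not shares of cells with the proteins. Alone, *Mertk* was found in only 14.8% of pooled macrophages and *Procr* in 10.7%. *Fcgr1* and *Mertk* were found together in 8.70% of pooled macrophages (381 of 4379, CI 7.88 to 9.57) and in 0 of 714 dendritic cells, where 3 cells would be 0.420%. Adding *Mrc1* left 5.71%, and adding *Procr*, which encodes the endothelial protein C receptor, left 13 cells, or 0.297%. In Lyve1/Cd209f macrophages *Fcgr1* and *Mertk* were found together in 18.8%, and all 25 of these cells also had *Mrc1*. *Mrc1* went most closely with *Fcgrt*: it was found in 73.9% of macrophages with *Fcgrt* (CI 71.7 to 76.0) and 28.8% without (CI 27.1 to 30.6). *Procr* went the other way, with 6.89% and 13.0%. *Itgb7*, the integrin β7 chain, was found in 5.33% of macrophages with *Fcgr3* and 13.0% without, with intervals that did not overlap.

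The ratio of UMIs of the 3 activating receptors to those of *Fcgr2b* summarizes the balance in each gate. It depends on how well each gene is captured, so only its order among gates can be read. Tmem119/Zmynd15 macrophages had 2.75 activating UMIs per inhibitory UMI (CI 2.67 to 2.84, runs 2.30 to 2.99), and Gpnmb/Trem2 macrophages 1.79 (CI 1.66 to 1.92, runs 1.59 to 1.81). Ly6c2 monocytes (1.65), other C1q macrophages (1.65), Thbs1 macrophages (1.35), and Il10 macrophages (1.16) followed, with overlapping runs. Fn1/Ccr2 myeloid cells (1.02, CI 0.990 to 1.05, runs 0.852 to 1.22) and Lyve1/Cd209f macrophages (0.851, CI 0.799 to 0.907, runs 0.771 to 1.16) were lowest among these. Every run of Tmem119/Zmynd15 macrophages was above every run of Lyve1/Cd209f macrophages. The ratio was 0.441 in cDC2 (CI 0.387 to 0.502) and 0.0967 in cDC1 (CI 0.0713 to 0.129), where the activating receptors were at or below background. In neutrophils it was 16.8 (CI 9.18 to 34.3), from 185 activating and 11 inhibitory UMIs. Of the background gates, epithelial cells were at 0.788 and fibroblasts at 0.0286, the latter from 1 activating and 35 inhibitory UMIs.

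**Figure D3:**
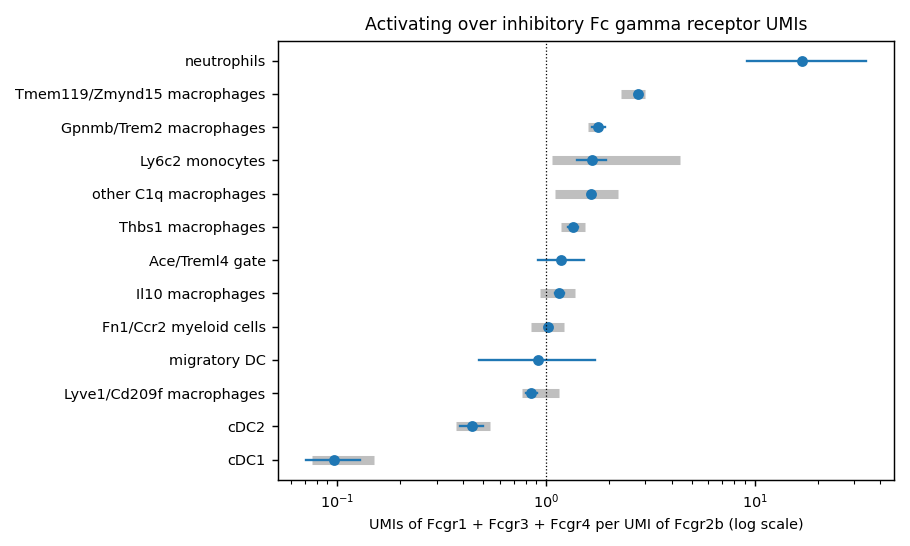
UMIs of *Fcgr1*, *Fcgr3*, and *Fcgr4* per UMI of *Fcgr2b* (log axis) by gate, with the point the pooled ratio, the thin line its exact 95% interval, the gray bar the range over barcode runs with at least 10 UMIs of *Fcgr2b* (none is seen for neutrophils, migratory DC, or the Ace/Treml4 gate, which had fewer than 2 such runs), and the dotted line a ratio of 1. T cells and the background gates, epithelial cells and fibroblasts, are left out. The gates shown run from 0.0967 in cDC1 to 2.75 in Tmem119/Zmynd15 macrophages and 16.8 in neutrophils.

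Genes whose levels followed each receptor across the 16 gates were ranked by Pearson's correlation of log2(CPM + 10) among 10693 genes. The gates share libraries and macrophage gates weigh heavily, so these values describe likeness over 16 points. *C3ar1* (r = 0.959), *Plxna4os1*, and *Cebpa* were most like *Fcgr1*. *Milr1* (r = 0.961), *Adgre1*, and *Igsf6* were most like *Fcgr3*, and *Lair1* (r = 0.967), *Csf1r*, and *Adgre1* most like *Fcgr4*. *Pid1* (r = 0.960), *Rab3il1*, and *Pltp* were most like *Fcgr2b*, and *Lilr4b* (r = 0.952), *Card19*, and *Tyrobp* most like *Fcer1g*. *Sult1a1* (r = 0.890) and *Mef2c* (r = 0.852) were among the 3 genes most like *Fcgrt*. Among the members themselves, *Fcgr3* and *Fcgr4* were most alike (r = 0.910), and *Fcgrt* and *Fcer1g* least (r = 0.108).

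In CD4/CD8-selected cells the receptors were near absent from T cells, with exceptions for *Fcer1g* and *Fcgrt*. Over 15889 CD8 T cells, *Fcgr1* was at 0.410 CPM, *Fcgr2b* at 1.63 CPM, *Fcgr3* at 1.14 CPM, and *Fcgr4* at 0.176 CPM. These cells also held 1835 C1q UMIs, and the part of free macrophage RNA in these levels was not tested. *Fcgr2b*, which activated CD8 T cells can express, was found in 0.617% of CD8 T cells at 5000 UMIs, with 0.507 to 1.14% over the gates. The macrophages carried through this selection, 958 cells, had *Fcgr1* at 170 CPM, *Fcgr2b* at 496 CPM, *Fcgr3* at 563 CPM, *Fcgr4* at 78.5 CPM, *Fcer1g* at 2768 CPM, and *Fcgrt* at 133 CPM.

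*Fcer1g* stood at 273 CPM (CI 260.4 to 286, runs 60.5 to 506) in the 862 CD8 T cells gated on NK receptor genes (*Klrb1c*, *Ncr1*, *Klre1*). It was at 28.3 CPM in other CD8 T cells, 12.4 CPM in progenitor-gated cells (*Pdcd1* and *Tcf7*), 9.87 CPM in terminal-gated cells (*Pdcd1* and *Havcr2*), 8.63 CPM in naive-gated cells (gated on genes that include *Ccr7*), and 9.24 CPM in conventional CD4 T cells. Foxp3 CD4 T cells had 0 UMIs, where 3 would be 12.3 CPM. NK receptor cells were 11.9-fold above all CD8 T cells outside their gate (CI 11.1 to 12.7), and within each of the 6 runs the fold was between 9.77 and 18.1. Only 3 of the 6 genes passed the filter in this comparison, and 0.892% of 10089 genes were at least 2-fold higher (2.61% were lower). At 5000 UMIs, *Fcer1g* was found in 23.7% of 591 NK receptor cells (CI 20.3 to 27.3) and 4.35% of 3906 other CD8 T cells (unthinned 19.6% and 3.62%, median depths 6368 and 4166 UMIs), against 1.29% of conventional CD4 T cells. Per C1q UMI there were 31.4 *Fcer1g* UMIs (CI 24.1 to 41.8) in NK receptor cells, 1.02 in CD8 T cells outside that gate, and 0.210 in the macrophages of the same matrix. The gates of T cells allow fewer than 3 C1q UMIs per cell, which limits the divisor. *Tyrobp* differed less, at 27.8 against 14.4 CPM. Among the ITAM and ITIM genes, *Lyn* (4.65-fold), *Lat2* (2.92-fold), *Plcg2* (2.77-fold), and *Fgr* (2.63-fold) were at least 2-fold higher, 4 of the 18 that passed. *Xcl1*, a chemokine gene named after its value was seen, was at 795 against 243 CPM.

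*Fcgrt* had another pattern among CD8 T cells. It was at 28.5 CPM in naive-gated cells (CI 25.3 to 31.9, runs 16.9 to 38.4), 11.6 CPM in NK receptor cells, 6.09 CPM in progenitor-gated cells, 5.43 CPM in other CD8 T cells, and 1.58 CPM in terminal-gated cells (4 UMIs). Conventional CD4 T cells were at 1.61 CPM (4 UMIs). Naive-gated cells were 4.80-fold above the CD8 T cells outside their gate (CI 4.12 to 5.58), a comparison chosen after the levels were seen, and the runs gave 2.52 to 8.35. Here 4 of the 6 genes passed the filter, and 1.74% of 10674 genes were at least 2-fold higher and 6.69% lower. *Fcgr3* was 2.46-fold lower pooled (CI 1.02 to 7.76), from 5 UMIs in naive-gated cells, and not in the same direction in every run. *Fcgr2b* was at 1.11-fold (CI 0.638 to 1.83). *Fcer1g* was 5.36-fold lower (CI 4.33 to 6.71). Of the 3485 *Fcer1g* UMIs outside the naive gate, however, 1759 were from NK receptor cells. Naive-gated cells, at 8.63 CPM of *Fcer1g* (CI 6.91 to 10.6), overlapped terminal-gated (9.87 CPM) and progenitor-gated cells (12.4 CPM, CI 10.4 to 14.6). They were below other CD8 T cells (28.3 CPM). At 5000 UMIs, *Fcgrt* was found in 11.6% of 966 naive-gated cells (CI 9.64 to 13.8), 2.74% of other CD8 T cells, and 0 of 197 terminal-gated cells (CI up to 1.86%). Unthinned, the shares of the first 2 were 15.2% and 1.97%, with median depths of 6983 and 4166 UMIs. Per C1q UMI the values were 1.78 *Fcgrt* UMIs in naive-gated cells, 0.267 in CD8 T cells outside the gate, and 0.0101 in macrophages. The limit of fewer than 3 C1q UMIs per T cell again holds down the divisor, so T cells and macrophages cannot be compared by this value. *B2m* was at 0.781 of the level outside the gate.

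**Figure D4:**
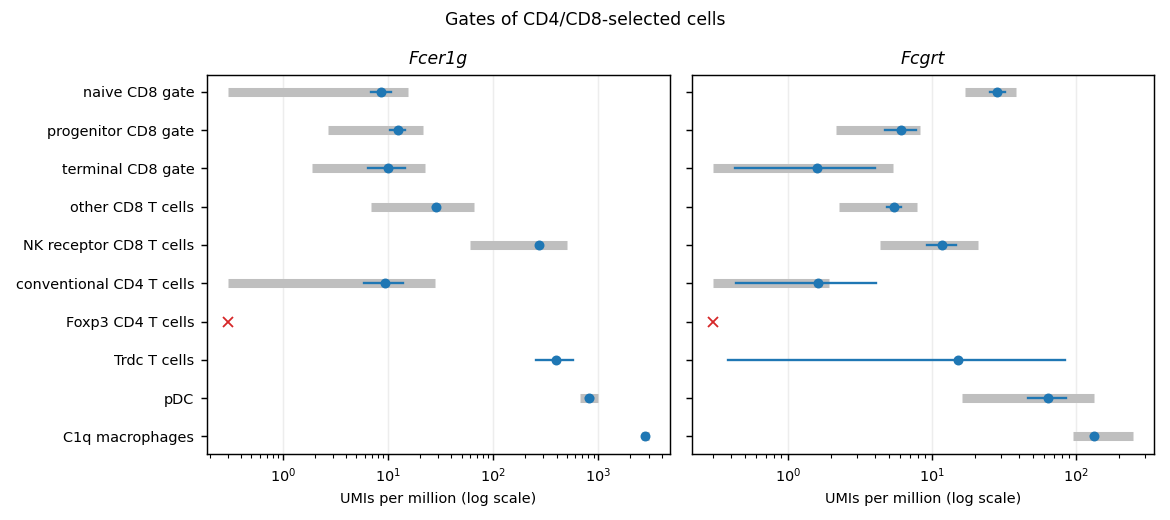
Level of *Fcer1g* and *Fcgrt* (CPM, log axis) in 10 gates of CD4/CD8-selected cells, with points, thin lines, gray bars, and crosses as pooled value, exact 95% Poisson interval, range over barcode runs of at least 10 cells, and 0 UMIs. *Fcer1g* is at 273 CPM in NK receptor CD8 T cells and between 8.63 and 28.3 CPM in the other CD8 gates, and *Fcgrt* is highest among them in naive-gated cells at 28.5 CPM.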

How the data were processed

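Single cells of PyMT tumors were counted on the 10x Genomics platform. The authors deposited 1 matrix of raw UMI counts for each cell type, genes by cells and not normalized, and the submitters' processing notes name Cell Ranger 3.0.2 and mm10, whereas the annotation, the transcript end counted, and any cell filter are not stated there. Of the symbols, 98.0% were in GENCODE M21.

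Cells with 200 genes and 500 UMIs were gated on raw UMIs. Macrophages had at least 10 C1q UMIs, and their states at least 3 of *Lyve1*, *Cd209f*, *Cd209g*, and *Fcna*, 3 of *Gpnmb* with 2 of *Trem2*, 2 of *Il10*, 5 of *Thbs1*, or 2 of *Tmem119* and *Zmynd15*. Macrophages of several states, 1133 cells, entered the pool only. Fn1/Ccr2 cells had 10 *Fn1* and 3 *Ccr2* UMIs. The other gates, with fewer than 10 C1q UMIs, used *Ly6c2*, *Ace* and *Treml4*, *Xcr1* and *Clec9a* (cDC1), *Cd209a* and *Flt3* (cDC2), *Ccr7* and *Fscn1* (migratory DC), *S100a8*, *S100a9*, *Csf3r*, and *Cxcr2* (neutrophils), CD3, keratin and *Epcam*, or collagen genes. Of the CD11c-selected cells 2305 met no gate. CD4/CD8-selected T cells had CD3 and fewer than 3 C1q UMIs. Doublets were not removed, and 173 cells that met several gates were left out.

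Folds are ratios of CPM with exact conditional intervals, over genes with at least 10 expected UMIs in the smaller gate. Shares have Clopper-Pearson intervals. Named genes are the members, fixed pathway lists, and the 3 genes most like each member. Members and lists were chosen with earlier results of these data known. Python 3.11.15, numpy 2.4.6, scipy 1.17.1, and pandas 2.3.3 were used, and the scripts were tested on simulated data. Alternatives were other gate minimums and C1q limits, deep or mitochondria-rich cells left out, shallow cells left out, cells of several gates kept, a mean over cells, each barcode run left out, other thinning depths, and other pseudocounts. Depth per barcode run was 13314063 to 30168668 UMIs. A few of the listed genes are not reported here.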

Additional observations from a re-analysis of the deposited data

How the results depend on the processing

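Each fold of macrophages over dendritic cells was recomputed under 13 alternatives, and none reversed. Leaving out each barcode run in turn gave 3.46 to 4.06 for *Fcgr2b*, 15.2 to 21.6 for *Fcgr3*, 4.32 to 4.86 for *Fcer1g*, and 1.36 to 1.78 for *Fcgrt*. Doubling every gate minimum gave 4.58 for *Fcgr2b*, 27.1 for *Fcgr3*, and 5.80 for *Fcer1g*. Leaving out the 5% of cells with most UMIs in each gate gave 4.04 for *Fcgr2b* and 4.79 for *Fcer1g*, and a mean over cells gave 4.05 for *Fcgr2b* and 1.84 for *Fcgrt*. The cause was not tested. The folds of *Fcgr1* and *Fcgr4* stayed within their counting intervals in 13 of 13 alternatives. In an alternative chosen after seeing the data, the highest gate was the same in 13 of 13 settings for *Fcgr1*, *Fcgr2b*, *Fcgr3*, and *Fcgrt*, 12 for *Fcgr4* (not with a mean over cells), and 11 for *Fcer1g* (not with a mean over cells or without barcode run 5). With a pseudocount of 50, 11 of the 18 most alike genes were the same. The shares of cells follow the depth: *Fcgr1* was found in 29.3% of macrophages at 2000 UMIs and 70.3% at 10000 UMIs. No paired analysis was possible because barcodes name no sample. Neutrophils (118 cells) and gates of fewer than 100 cells limit what low counts can show, and doublets and free RNA were not removed.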

Other observations

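In the CD4/CD8-selected matrix, 77 plasmacytoid dendritic cells had *Fcer1g* at 822 CPM (CI 758 to 890.5, runs 672 to 1001), found in 96.0% of 75 cells at 5000 UMIs, whereas *Fcgr2b* was at 29.8 CPM, *Fcgrt* at 63.6 CPM, *Fcgr3* at 4.06 CPM from 3 UMIs, and *Fcgr4* had 0 UMIs, where 3 would be 4.06 CPM. The 13 T cells with *Trdc*, a gene of γδ T cells, had *Fcer1g* at 392 CPM from 26 UMIs. In the CD11c-selected matrix, 64 T cells had *Fcer1g* at 817 CPM (CI 736 to 904, runs 549 to 1171). Their markers of NK cells summed to 356 CPM, the highest of any gate, and *Xcl1* was at 845.0 CPM. Markers of cDC2 (967 CPM, 5 of 5 genes above 0) and of migratory DC (639 CPM, 4 of 5) were each the second highest of any gate, and doublets were not removed. The part of these NK and dendritic cell markers in the *Fcer1g* level was not tested.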
